A study of Homo sapiens with 18 samples.

Results

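The genes described here are 41 human genes of homologous recombination and Fanconi anaemia repair, taken by symbol from a table of 58870 genes measured by RNA sequencing in an adrenocortical carcinoma line. All 41 had enough counts to be tested, among 15787 genes tested in all. Homologous recombination mends broken DNA and restarts stalled replication forks by copying an intact sister strand: broken ends are resected, BRCA2 and its partners load a strand-exchange recombinase on the exposed strand, and helicases and nucleases then resolve the joined molecules. The Fanconi anaemia pathway removes crosslinks between the DNA strands. Its core complex and the E2 enzyme UBE2T attach ubiquitin to FANCD2 and FANCI, and the kinases ATM and ATR signal damage to both systems. Many of these genes are transcribed mainly in cells that are replicating DNA.

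The cells were NCI-H295R, an established line from a human carcinoma of the adrenal cortex that secretes steroids, and the series asks how joint inhibition of HSP90 and PI3K acts on such cells. Treatment lasted 48 h at 20 nM, as stated, with STA9090 (also called ganetespib, which inhibits the HSP90 chaperone), with PIK75 (a PI3K inhibitor), with BGT226 (a dual inhibitor of PI3K and mTOR), with STA9090 and PIK75 together (STA9090+PIK75) or with STA9090 and BGT226 together (STA9090+BGT226), and the remaining cells were untreated. Each of the 6 groups had 3 biological replicates, which gave 18 libraries of ribosome-depleted total RNA from 1 line, and all results are therefore about that line. Neither the dose of the single agents inside a combination nor a vehicle for the untreated cells is named by the sources used here.

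Promoter sequence is shown for 5 of the genes whose levels differed between groups: UBE2T, RAD54L, FANCD2 and EME1, which were lower with BGT226, with STA9090+BGT226 or with both, and ATM, which was higher with both. RAD54L, FANCD2 and EME1 were also higher with STA9090+PIK75. Each is the window of 250 bases before a RefSeq start in GRCh38.p14, read 5′ to 3′ on the gene's strand. Capitals mark an E2F core, a CHR element or a CCAAT box, on either strand. The E2F core was searched in 4 spellings, which are TTTGGCG as the first, then TTTGCCG as the second, with TTTCGCG as the third and finally TTTCCCG as the fourth. The CHR element was searched as TTTGAA and the box by the letters of its name.
UBE2T: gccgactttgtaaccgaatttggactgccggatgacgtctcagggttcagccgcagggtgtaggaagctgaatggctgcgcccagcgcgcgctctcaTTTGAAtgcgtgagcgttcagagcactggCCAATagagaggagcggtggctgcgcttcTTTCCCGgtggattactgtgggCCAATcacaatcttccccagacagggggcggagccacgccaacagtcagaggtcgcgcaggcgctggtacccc
RAD54L: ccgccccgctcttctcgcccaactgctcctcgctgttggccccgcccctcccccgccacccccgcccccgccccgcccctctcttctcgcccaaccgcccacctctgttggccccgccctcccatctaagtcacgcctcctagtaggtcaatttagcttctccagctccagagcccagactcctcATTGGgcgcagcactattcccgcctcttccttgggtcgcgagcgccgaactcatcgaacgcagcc
FANCD2: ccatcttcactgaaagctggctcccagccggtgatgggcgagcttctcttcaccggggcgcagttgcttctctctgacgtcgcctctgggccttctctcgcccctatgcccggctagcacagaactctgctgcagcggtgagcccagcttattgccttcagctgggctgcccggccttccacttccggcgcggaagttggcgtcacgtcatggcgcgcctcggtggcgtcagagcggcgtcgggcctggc
EME1: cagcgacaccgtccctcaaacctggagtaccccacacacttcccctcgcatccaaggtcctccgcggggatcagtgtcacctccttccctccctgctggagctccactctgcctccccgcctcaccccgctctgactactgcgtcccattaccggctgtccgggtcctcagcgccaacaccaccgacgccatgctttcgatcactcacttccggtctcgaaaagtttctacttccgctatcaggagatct
ATM: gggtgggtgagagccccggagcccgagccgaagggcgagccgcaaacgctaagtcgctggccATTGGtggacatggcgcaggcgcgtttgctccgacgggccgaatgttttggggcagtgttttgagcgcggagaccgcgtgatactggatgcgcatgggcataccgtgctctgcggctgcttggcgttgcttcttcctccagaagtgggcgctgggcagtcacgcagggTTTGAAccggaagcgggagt
The windows lie at chr1:202341937-202342186 on the minus strand for UBE2T and, on the plus strand, at chr1:46247438-46247687 for RAD54L, chr3:10026187-10026436 for FANCD2, chr17:50372979-50373228 for EME1 and chr11:108222817-108223066 for ATM. The UBE2T window held all 3 kinds of motif, the RAD54L window a CCAAT box, the ATM window a CCAAT box and a CHR element, and the FANCD2 and EME1 windows none of these letters. RAD54L and ATM each have another RefSeq start whose window is not shown. That window held 2 CCAAT boxes for RAD54L, and a CCAAT box but no CHR element for ATM. RefSeq entries were matched for 36 of the 41 genes, and not for RAD54B, RADX, NBN, RMI2 and FANCI. A gene with several starts was counted for a motif if any of its windows held it. An E2F core lay in the window of 7 of the 36 genes (19.4%: RAD50, RMI1, ATR, FANCA, FANCC, FANCF and UBE2T), against 8.86% of 27305 genes in the promoter table. The CHR element was found for 4 (11.1%, against 16.1%) and the CCAAT box for 18 (50%, against 37%). Among replication genes with an entry the E2F core was found for 11 of 17 (64.7%), and among mitosis genes the CHR element for 7 of 13 (53.8%).

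Expected counts summed to between 10.2 and 21.1 M in a library, of which the 41 genes took 8214 to 17030 counts. Values are given as counts scaled to 1 M (CPM), scaled between libraries by the TMM method and not by gene length, so they are compared within a gene only. STA9090 replicate 1 and PIK75 replicate 3 stood apart from their groups on the third principal component (24.34 against 8.53 and 6.51, and -28.21 against -15.34 and -15.93), and counts that rest on those groups are also given without them. The cells carried adrenal markers: 9 of 12 passed the filter, NR5A1 among them, while MLANA was at 0 in all 18 libraries and CYP11B1 and CYP11B2 were low. Of 15 markers of fibroblasts, endothelium and leukocytes 3 passed, with summed levels of 3.25 to 12.3 CPM in the group means and CDH5 and CD3E at 0 in all libraries. Summed adrenal markers were 1400 ± 104 CPM with PIK75 and 1051 ± 23.6 CPM with STA9090+PIK75, against 2294 ± 242 CPM in untreated cells (SD, n = 3). The part of that loss in the repair values was not tested.

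The 5 treatments differed in which repair genes moved and in which direction. Summed over the 41 genes, the level was 867 ± 19.9 CPM with STA9090, 900 ± 20.2 CPM with PIK75, 796 ± 11.3 CPM with BGT226, 964 ± 26.3 CPM with STA9090+PIK75 and 771 ± 10.9 CPM with STA9090+BGT226, against 833 ± 26.7 CPM in untreated cells (SD, n = 3). The 3 STA9090+PIK75 libraries had the highest sums and the 3 STA9090+BGT226 libraries the lowest. In a bulk sample, fewer cells of a kind and less RNA in each cell cannot be told apart. Calls below are by edgeR's quasi-likelihood F-test with Benjamini-Hochberg adjustment over the 15787 genes tested, at a threshold of 0.05, and differences are log2 fold changes, treatment over untreated unless stated.

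STA9090 alone changed 1 of the 41 genes. RADX, a single-stranded DNA binding protein that restrains the recombinase at replication forks, rose, and none fell; over all genes, 1.16% rose and 1.68% fell. The median log2 fold change of the 41 genes was 0.090, against 0.0044 over all genes tested, and 12 of the 41 had an unadjusted p under 0.05, against 18.4% of all genes. RADX also passed without STA9090 replicate 1, but not when the STA9090 and untreated libraries were fitted alone (adjusted p = 0.0792). Without untreated replicate 1, TOPBP1 passed as well, so that 2 genes were called.

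PIK75 alone raised 7 of the 41 genes and lowered none, against 8.49% raised and 10.2% lowered of all genes. The 7 were RAD51B, FANCD2, MUS81, PALB2, ATR, RAD54L and FANCA. The median of the 41 was 0.043, against 0.0019 over all genes, and the log2 fold change was positive for 25 genes and negative for 16. RAD51B and FANCD2 passed with each of the 6 libraries left out in turn. Without PIK75 replicate 3 the count was 4, without PIK75 replicate 2 it was 3 (2 higher, 1 lower), without untreated replicate 1 it was 2 and without untreated replicate 3 it was 4. FANCA was lost whichever of the 6 was left out, PALB2 without PIK75 replicate 2 or any 1 of the untreated libraries, RAD54L and MUS81 without PIK75 replicate 2 or 3 or untreated replicate 1 or 3, and ATR without PIK75 replicate 1 or 2 or untreated replicate 1 or 2.

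BGT226 alone lowered 5 genes, UBE2T, XRCC3, FANCI, RAD54L and ATRIP, and raised 1, ATM. Over all genes 15.7% fell and 12.8% rose, so the 5 of 41 that fell (12.2%) stood near the background and the 1 that rose (2.44%) below it. The median was -0.067, against 0.011 over all genes. ATRIP was lost without BGT226 replicate 1 or without untreated replicate 3, and the other 5 calls passed with each library left out.

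STA9090+PIK75 raised 14 of the 41 genes (34.1%, against 18.3% of all genes) and lowered none (against 20.1%). They came from 6 of the 7 roles described below, with none among the resection genes. The median was 0.10, against 0.015 over all genes. Calls were lost for RAD51B without STA9090+PIK75 replicate 1 or 2 or untreated replicate 2, for RAD51C without STA9090+PIK75 replicate 3 or untreated replicate 1, for XRCC2 without STA9090+PIK75 replicate 2 or untreated replicate 2, and for CHEK2 whichever of the 6 libraries was left out, except untreated replicate 3. The other 10 passed with each library left out.

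STA9090+BGT226 lowered 13 of the 41 genes (31.7%, against 20.4% of all genes) and raised 4 (9.76%, against 19.4%). The fallen genes included both members of the ID complex, 4 of 9 genes of the core complex group and 3 of 5 genes that process joint molecules, while the 4 that rose were ATM, RAD50, RADX and ATR. The median was -0.13, against 0.032 over all genes. FANCC was lost whichever of the 6 libraries was left out, except STA9090+BGT226 replicate 3. RADX was lost without STA9090+BGT226 replicate 2 or 3 or untreated replicate 1 or 3, RAD50 without STA9090+BGT226 replicate 2 or untreated replicate 2, RMI1 without STA9090+BGT226 replicate 1 or 3 or untreated replicate 2 or 3, FANCG without STA9090+BGT226 replicate 2 or 3 or untreated replicate 2, and FANCA without STA9090+BGT226 replicate 2.

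**Figure D1:**
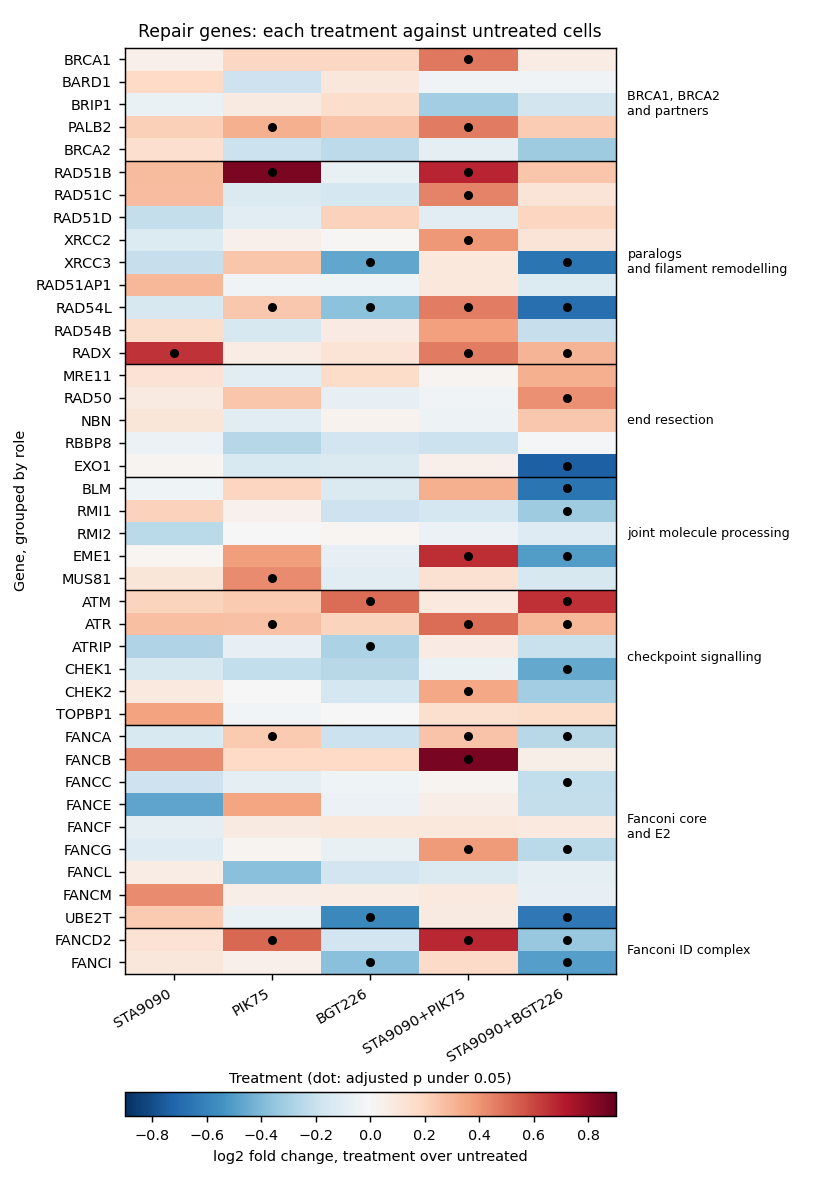
Log2 fold change of each of the 41 genes (rows, grouped by role) in each treatment over untreated cells (columns), as fitted by edgeR, with a dot where the adjusted p was under 0.05. The STA9090+PIK75 column holds 14 dots, all on higher genes, and the STA9090+BGT226 column holds 13 dots on lower genes and 4 on higher genes.

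BRCA1, BRCA2 and their partners bring the recombinase to resected DNA. BRCA1, a ubiquitin ligase, had 20.9, 27.7 and 24.3 CPM in the STA9090+PIK75 libraries, against 18.1, 15.7 and 19.03 CPM in the untreated ones. The lowest STA9090+PIK75 library was above the highest untreated library, and the log2 fold change was 0.47 (SE 0.13, adjusted p = 0.00531). In the other 4 treatments BRCA1 overlapped the untreated range, with log2 fold changes of 0.042 with STA9090, 0.19 with PIK75, 0.18 with BGT226 and 0.066 with STA9090+BGT226, none past the threshold. BRCA1 shares 120 of its 9187 exonic bases with another annotated gene on its strand and is uncertain to that extent. PALB2, the bridge between BRCA1 and BRCA2, had 17.1, 19.1 and 17.5 CPM with STA9090+PIK75 and 14.7, 18.7 and 15.05 CPM with PIK75, against 13.1, 13.4 and 12.3 CPM in untreated cells. It rose by 0.47 (SE 0.10, adjusted p = 0.00109) on the log2 scale with STA9090+PIK75 and by 0.32 (SE 0.10, adjusted p = 0.0363) with PIK75. All 15 treated libraries were above all 3 untreated ones for PALB2, but its log2 fold changes of 0.21 with STA9090, 0.26 with BGT226 and 0.23 with STA9090+BGT226 missed the threshold. BRCA2, which loads the recombinase, had 6.16, 6.48 and 6.88 CPM with STA9090+PIK75 and 4.94, 5.81 and 5.79 CPM with STA9090+BGT226, against 6.05, 6.09 and 8.71 CPM in untreated cells. It passed in no treatment, and its largest log2 fold change was -0.32 (SE 0.19, adjusted p = 0.202) with STA9090+BGT226. BARD1, the ring-finger partner of BRCA1, and BRIP1, a helicase that binds BRCA1, also passed in no comparison with untreated cells. Their log2 fold changes lay between -0.18 (PIK75) and 0.18 (STA9090) for BARD1 and between -0.31 (STA9090+PIK75) and 0.16 (BGT226) for BRIP1.

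The paralogs RAD51B, RAD51C, RAD51D, XRCC2 and XRCC3 help the recombinase filament to form, and did not move together. RAD51B had 3.32, 2.68 and 3.13 CPM with PIK75 and 3.12, 2.94 and 2.15 CPM with STA9090+PIK75, against 2.04, 1.35 and 1.69 CPM in untreated cells. Neither group overlapped the untreated one, and the log2 fold changes were 0.85 (SE 0.21, adjusted p = 0.00671) with PIK75 and 0.69 (SE 0.21, adjusted p = 0.0135) with STA9090+PIK75. RAD51B was the least counted of the 41 genes, with 18 to 45 counts in a library, and its SE was correspondingly wide. XRCC3 had 25.9, 26.8 and 27.8 CPM with BGT226 and 25.4, 20.00 and 25.2 CPM with STA9090+BGT226, against 33.4, 41.4 and 36.7 CPM in untreated cells. It fell in both, with log2 fold changes of -0.47 (SE 0.10, adjusted p = 0.000984) and -0.66 (SE 0.10, adjusted p = 1.99e-05), and its 44.97, 42.7 and 45.1 CPM with PIK75, all above the untreated range, gave a log2 fold change of 0.25 (SE 0.093, adjusted p = 0.0646) that missed the threshold. XRCC3 shares 5756 of its 7507 exonic bases with KLC1 on the other strand, and KLC1 had log2 fold changes of 0.10 with BGT226 and 0.13 with STA9090+BGT226, neither past the threshold. RAD51C had 10.7, 9.71 and 12.6 CPM with STA9090+PIK75 and 7.74, 8.11 and 6.17 CPM with PIK75, against 7.34, 8.25 and 8.63 CPM in untreated cells. It rose with the combination by 0.45 (SE 0.14, adjusted p = 0.018) on the log2 scale, as did XRCC2 by 0.39 (SE 0.13, adjusted p = 0.0221), and neither gene passed in another treatment. RAD51D passed in no treatment, with log2 fold changes from -0.21 with STA9090 to 0.20 with BGT226.

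Among the genes that act on the filament, RAD54L and RADX gave the clearest differences. RAD54L, a DNA translocase that drives strand invasion, had 28.2, 31.8 and 30.01 CPM with PIK75, 18.4, 20.7 and 19.7 CPM with BGT226, 33.9, 35.3 and 35.1 CPM with STA9090+PIK75 and 16.7, 14.2 and 16.5 CPM with STA9090+BGT226, against 23.8, 26.7 and 25.5 CPM in untreated cells. It rose with PIK75 by 0.24 (SE 0.079, adjusted p = 0.0371) and with STA9090+PIK75 by 0.46 (SE 0.079, adjusted p = 0.000117) on the log2 scale. It fell with BGT226, with a log2 fold change of -0.37 (SE 0.082, adjusted p = 0.00204), and with STA9090+BGT226, with -0.68 (SE 0.083, adjusted p = 2.52e-06), and none of these 4 groups overlapped the untreated one. RAD54L shares 806 of its 3212 exonic bases with LRRC41 on the other strand, whose log2 fold changes ran from -0.039 with STA9090 to 0.21 with PIK75, none past the threshold. RADX had 20.6, 22.3 and 19.3 CPM with STA9090 and 18.5, 17.4 and 18.9 CPM with STA9090+PIK75, both above the 12.4, 14.5 and 12.7 CPM of untreated cells. Its log2 fold changes were 0.65 (SE 0.11, adjusted p = 0.0044) with STA9090, 0.47 (SE 0.11, adjusted p = 0.00183) with STA9090+PIK75 and 0.31 (SE 0.11, adjusted p = 0.0276) with STA9090+BGT226. With STA9090+BGT226 the libraries were uneven (13.7, 19.5 and 15.9 CPM) and the lowest lay within the untreated range. RAD51AP1, which stimulates strand exchange, and RAD54B, a relative of RAD54L, passed in no treatment, and their SE of 0.19 and 0.24 with STA9090+PIK75 were among the widest of the 41. RAD51AP1 has an annotated pseudogene copy and RAD54B shares 3139 of its 5313 exonic bases with FSBP on the same strand, so both are uncertain.

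Of the 5 treatments, only STA9090+BGT226 gave calls among the 5 end resection genes, 2 of 5 (40%, against 39.8% of all genes). The complex of the nuclease MRE11, the ATPase RAD50 and NBN opens resection, with RBBP8 (CtIP) as its cofactor, and EXO1 extends it. EXO1 had 13.7, 15.5 and 17.6 CPM with STA9090+BGT226, against 26.8, 23.2 and 28.2 CPM in untreated cells. These groups were far apart, with a log2 fold change of -0.73 (SE 0.10, adjusted p = 7.2e-06), and EXO1 overlapped the untreated range in the other 4 treatments, where its log2 fold change lay between -0.14 and 0.045. RAD50 had 21.5, 33.7 and 26.1 CPM with STA9090+BGT226, against 21.8, 17.1 and 22.3 CPM in untreated cells. It rose by 0.41 (SE 0.13, adjusted p = 0.0176) on the log2 scale, but the lowest STA9090+BGT226 library lay within the untreated range and replicate 2 was the highest of all. RAD50 shares 7784 of its 9771 exonic bases with another annotated gene on its strand, so its counts are uncertain. MRE11 and NBN had log2 fold changes of 0.32 (SE 0.13, adjusted p = 0.0529) and 0.24 (SE 0.13, adjusted p = 0.165) in the same cells, and RBBP8 of -0.0078. None of these 3 passed in any treatment. MRE11 and RBBP8 have annotated pseudogene copies, which makes their counts uncertain.

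Of the genes that process joint molecules, EME1 and BLM moved most. EME1, the partner of the nuclease MUS81, had 14.02, 9.93 and 12.7 CPM with STA9090+PIK75 and 5.98, 5.13 and 5.14 CPM with STA9090+BGT226, against 8.55, 7.03 and 7.44 CPM in untreated cells. The first group was above and the second below every untreated library, with log2 fold changes of 0.67 (SE 0.13, adjusted p = 0.000402) and -0.51 (SE 0.14, adjusted p = 0.00738). With PIK75 alone EME1 had 10.03, 9.68 and 10.2 CPM, also above the untreated range, and a log2 fold change of 0.38 (SE 0.13, adjusted p = 0.0506) that just missed the threshold. EME1 shares 541 of its 3294 exonic bases with LRRC59 on the other strand, and LRRC59 had log2 fold changes of -1.08 (adjusted p = 3.07e-08) with STA9090+BGT226 and -0.12 (adjusted p = 0.331) with STA9090+PIK75. The strand used in counting is not given in the sources used here, and how the shared bases were counted was not tested. MUS81 had 32.7, 36.5 and 43.3 CPM with PIK75, against 26.1, 30.2 and 27.4 CPM in untreated cells, a rise of 0.42 (SE 0.14, adjusted p = 0.038) on the log2 scale, and passed in no other treatment. Its 5476 exonic bases share 770 with CFL1 and EFEMP2 on the other strand, and CFL1 had a log2 fold change of 0.033 (adjusted p = 0.862) with PIK75. BLM, the helicase that dissolves joined molecules with RMI1 and RMI2, had 7.82, 7.09 and 8.45 CPM with STA9090+BGT226, against 11.1, 10.5 and 15.6 CPM in untreated cells. It fell there, with a log2 fold change of -0.66 (SE 0.16, adjusted p = 0.00217), and so did RMI1, with -0.32 (SE 0.12, adjusted p = 0.0414). RMI2 passed in no treatment, with log2 fold changes from -0.24 with STA9090 to 0.019 with BGT226.

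The checkpoint kinases did not share a direction. ATM, the kinase that answers to broken ends, had 65.7, 59.9 and 59.4 CPM with BGT226 and 68.8, 68.7 and 67.6 CPM with STA9090+BGT226, against 41.2, 40.4 and 48.6 CPM in untreated cells. All 6 of these treated libraries were above all untreated ones, with log2 fold changes of 0.51 (SE 0.089, adjusted p = 0.000245) and 0.66 (SE 0.088, adjusted p = 7.79e-06). With STA9090+PIK75 it had 45.9, 47.8 and 44.8 CPM and a log2 fold change of 0.090 (SE 0.090, adjusted p = 0.459). ATM shares 359 of its 23972 exonic bases with genes on the other strand, of which NPAT had log2 fold changes of 0.40 (adjusted p = 0.0131) with BGT226 and 0.39 (adjusted p = 0.0106) with STA9090+BGT226. ATR, the kinase that answers to single-stranded DNA at stalled forks, had 38.03, 45.3 and 43.3 CPM with STA9090+PIK75, 36.3, 37.9 and 36.1 CPM with STA9090+BGT226 and 35.98, 36.7 and 34.9 CPM with PIK75, against 28.4, 29.4 and 31.7 CPM in untreated cells. It was above the untreated range in all 15 treated libraries, and its log2 fold changes were 0.50 (SE 0.077, adjusted p = 3.15e-05), 0.30 (SE 0.077, adjusted p = 0.00399) and 0.27 (SE 0.078, adjusted p = 0.0205) in these 3 treatments. With STA9090 (0.27 (SE 0.077, adjusted p = 0.0618)) and with BGT226 (0.20 (SE 0.078, adjusted p = 0.063)) ATR missed the threshold. ATR shares 2048 of its 12496 exonic bases with an annotated gene on the other strand that did not pass the filter. ATRIP, which brings ATR to the DNA, had 19.5, 22.8 and 22.1 CPM with BGT226, against 25.05, 26.8 and 27.1 CPM in untreated cells, a log2 fold change of -0.29 (SE 0.085, adjusted p = 0.0153). ATRIP shares 1515 of its 5431 exonic bases with TREX1 on the same strand, so its counts are uncertain. CHEK1, the kinase below ATR, had 13.5, 16.2 and 14.01 CPM with STA9090+BGT226, against 18.5, 20.6 and 21.1 CPM in untreated cells. It fell there, with a log2 fold change of -0.46 (SE 0.11, adjusted p = 0.00214), while in the other 4 treatments its log2 fold changes lay between -0.25 and -0.061 and missed the threshold. CHEK1 shares 80 of its 6558 exonic bases with STT3A on the same strand and is uncertain to that extent. CHEK2, the kinase below ATM, passed with STA9090+PIK75 only (0.35 (SE 0.13, adjusted p = 0.0456)), and TOPBP1, which activates ATR, passed in no treatment, with its largest log2 fold change of 0.36 (SE 0.11, adjusted p = 0.075) with STA9090. CHEK2 has near-identical pseudogene copies, which makes its counts uncertain.

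The core complex group holds the scaffold and ligase subunits, the translocase FANCM and UBE2T. FANCB, a subunit of the ligase module, had 8.48, 9.35 and 8.81 CPM with STA9090+PIK75, against 4.54, 5.14 and 5.07 CPM in untreated cells. This was the largest rise of the 41 genes in that treatment, 0.85 (SE 0.13, adjusted p = 3.27e-05) on the log2 scale. With STA9090 alone FANCB had 6.66, 6.76 and 6.41 CPM, above every untreated library, with a log2 fold change of 0.43 (SE 0.13, adjusted p = 0.0837) that missed the threshold. UBE2T had 9.76, 12.9 and 11.5 CPM with BGT226 and 11.4, 11.1 and 10.4 CPM with STA9090+BGT226, against 17.1, 17.5 and 16.7 CPM in untreated cells. It fell in both, with log2 fold changes of -0.58 (SE 0.11, adjusted p = 0.000406) and -0.65 (SE 0.11, adjusted p = 8.26e-05), and was close to its untreated level with PIK75 (-0.063) and STA9090+PIK75 (0.084). FANCG, which binds FANCA, had 54.6, 56.2 and 58.1 CPM with STA9090+PIK75 and 40.6, 32.8 and 36.2 CPM with STA9090+BGT226, against 39.6, 47.3 and 42.4 CPM in untreated cells. It rose by 0.38 (SE 0.084, adjusted p = 0.00115) with the first on the log2 scale, and with the second its log2 fold change was -0.24 (SE 0.085, adjusted p = 0.0298), with 1 library inside the untreated range. FANCA had log2 fold changes of 0.26 (SE 0.074, adjusted p = 0.00922) with STA9090+PIK75, -0.25 (SE 0.075, adjusted p = 0.0116) with STA9090+BGT226 and 0.23 (SE 0.074, adjusted p = 0.0318) with PIK75, and averaged 42.1 ± 1.80, 29.5 ± 2.18 and 41.4 ± 1.92 CPM in these treatments, against 35.2 ± 0.584 CPM in untreated cells (SD, n = 3). FANCA shares 2302 of its 9736 exonic bases with ZNF276 on the other strand, and ZNF276 had log2 fold changes of 0.20 (adjusted p = 0.126), 0.14 (adjusted p = 0.273) and 0.38 (adjusted p = 0.0104) in the same order. FANCC passed with STA9090+BGT226 only, at -0.22 (SE 0.087, adjusted p = 0.0487). FANCE, FANCF, FANCL, the ligase subunit, and FANCM passed in no treatment. FANCE ranged most of these, from -0.48 (SE 0.16, adjusted p = 0.102) with STA9090 to 0.36 (SE 0.15, adjusted p = 0.098) with PIK75, and neither of those groups overlapped the untreated one.

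FANCD2 and FANCI form the clamp that the core complex modifies. FANCD2 had 85.2, 89.2 and 86.2 CPM with PIK75, 93.7, 99.6 and 98.3 CPM with STA9090+PIK75 and 49.8, 45.7 and 48.5 CPM with STA9090+BGT226, against 56.1, 66.5 and 59.7 CPM in untreated cells. The first 2 groups were above every untreated library and the last below, with log2 fold changes of 0.51 (SE 0.074, adjusted p = 6.03e-05), 0.68 (SE 0.074, adjusted p = 5.44e-07) and -0.34 (SE 0.076, adjusted p = 0.00129). With BGT226 alone FANCD2 had 57.95, 48.96 and 55.3 CPM, overlapping the untreated range, and a log2 fold change of -0.17 (SE 0.076, adjusted p = 0.0981). FANCI had 54.01, 52.5 and 56.5 CPM with BGT226, 79.6, 79.1 and 80.1 CPM with STA9090+PIK75 and 49.4, 51.99 and 48.6 CPM with STA9090+BGT226, against 68.3, 73.6 and 69.7 CPM in untreated cells. It fell with BGT226 (-0.38 (SE 0.075, adjusted p = 0.000773)) and STA9090+BGT226 (-0.50 (SE 0.075, adjusted p = 2.76e-05)) and missed the threshold with STA9090+PIK75 (0.17 (SE 0.074, adjusted p = 0.0686)). With PIK75 alone the log2 fold change of FANCI was 0.043 (SE 0.074, adjusted p = 0.746), beside the 0.51 of FANCD2. A pseudogene copy of FANCD2 is annotated, and FANCI shares 458 of its 7766 exonic bases with POLG on the other strand, so both are uncertain to that extent. POLG had log2 fold changes of -0.23 (adjusted p = 0.0642) with BGT226, -0.85 (adjusted p = 6.98e-07) with STA9090+PIK75 and -0.34 (adjusted p = 0.00551) with STA9090+BGT226.

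**Figure D2:**
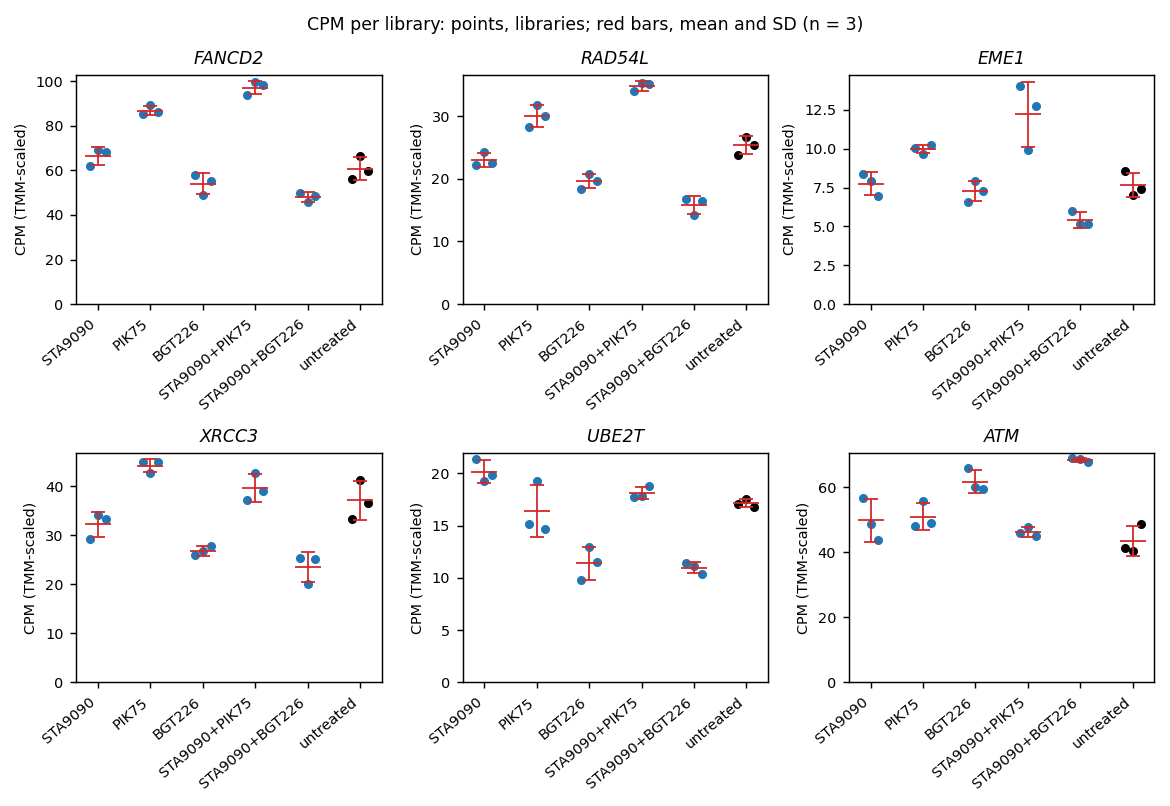
CPM (vertical axes, from 0) of 6 genes in each of the 18 libraries, with the 5 treatments in blue and untreated cells in black at the right, and red bars for the mean and SD of 3 libraries. FANCD2, RAD54L and EME1 are highest with STA9090+PIK75 and lowest with STA9090+BGT226, XRCC3 and UBE2T are low in both groups with BGT226, and ATM is highest there.

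Adding STA9090 to PIK75, set against PIK75 alone, raised 6 of the 41 genes and lowered 1, against 11.3% raised and 14% lowered of all genes. The median was 0.13, against 0.0046 over all genes. FANCB had the largest log2 fold change of STA9090+PIK75 over PIK75, 0.67 (SE 0.13, adjusted p = 0.00062), with 8.48, 9.35 and 8.81 CPM in the combination and 5.09, 6.61 and 4.99 CPM with PIK75. RAD51C followed with 0.58 (SE 0.15, adjusted p = 0.00582), then RADX with 0.40 (SE 0.11, adjusted p = 0.00961) and FANCG with 0.36 (SE 0.084, adjusted p = 0.00352). In FANCB, RAD51C, RADX and FANCG every combination library was above every PIK75 library, and these 4 calls passed with each library left out. ATR (0.24 (SE 0.076, adjusted p = 0.0262)) and RAD54L (0.21 (SE 0.078, adjusted p = 0.0485)) also passed. BRIP1 was the gene that fell, to 11.8, 13.5 and 12.4 CPM with STA9090+PIK75, against 14.97, 17.2 and 17.4 CPM with PIK75, a log2 fold change of -0.39 (SE 0.13, adjusted p = 0.0277). The count was 4 without PIK75 replicate 3 and 4 without STA9090+PIK75 replicate 3, with BRIP1, ATR and RAD54L lost in both cases. BRIP1 was also lost without PIK75 replicate 2 or STA9090+PIK75 replicate 1, ATR without PIK75 replicate 1 or STA9090+PIK75 replicate 2, and RAD54L without PIK75 replicate 1, without STA9090+PIK75 replicate 1 or 2 and under each of the 7 alternatives that kept all replicates, except the stricter filter. FANCD2, already high with PIK75, had a log2 fold change of 0.16 (SE 0.073, adjusted p = 0.111).

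Adding STA9090 to BGT226 changed 1 of the 41 genes, EXO1, which fell to 13.7, 15.5 and 17.6 CPM with STA9090+BGT226, against 22.7, 24.4 and 23.97 CPM with BGT226. The log2 fold change was -0.60 (SE 0.10, adjusted p = 0.00212), and EXO1 passed with each library left out. Over all genes 0.988% rose and 1.7% fell in this comparison. RAD54L (-0.31 (SE 0.085, adjusted p = 0.0511)), RAD50 (0.49 (SE 0.13, adjusted p = 0.0526)) and BLM (-0.53 (SE 0.16, adjusted p = 0.0733)) came next and missed the threshold, and 7 of the 41 had an unadjusted p under 0.05, against 16.5% of all genes. Without STA9090+BGT226 replicate 1 the count was 2, with RAD50 added as higher. Fitting the BGT226 and STA9090+BGT226 libraries alone, or using DESeq2, gave 4 genes, EXO1, RAD54L and BLM lower and RAD50 higher.

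The interaction asks whether STA9090 changed a gene by a different amount in the presence of a PI3K inhibitor than in its absence. With PIK75 it was positive and past the threshold for 2 of the 41 genes and negative for none, against 3.54% and 5.73% of all genes. For FANCG, STA9090 gave a log2 fold change of 0.36 in the presence of PIK75 and -0.11 in its absence, an interaction of 0.47 (SE 0.12, adjusted p = 0.0168). For ATRIP these were 0.15 and -0.27, an interaction of 0.43 (SE 0.12, adjusted p = 0.03). ATRIP had 28.6, 28.8 and 25.8 CPM with STA9090+PIK75, 24.3, 26.8 and 23.7 CPM with PIK75 and 20.7, 21.7 and 22.9 CPM with STA9090, against 25.05, 26.8 and 27.1 CPM in untreated cells. FANCG passed with each of the 12 libraries left out, whereas ATRIP was lost when STA9090 replicate 1 or 2, PIK75 replicate 1 or 3, STA9090+PIK75 replicate 1 or 2 or untreated replicate 2 or 3 was left out. The count was 1 without STA9090 replicate 2, without PIK75 replicate 1 or 3 and without STA9090+PIK75 replicate 1. Further genes passed when a library was left out. MUS81 (-0.39 with all libraries) passed without STA9090 replicate 1, and ATM (-0.35) without STA9090 replicate 3 or untreated replicate 3. RAD54L (0.36) passed without untreated replicate 1 or PIK75 replicate 2, XRCC2 without untreated replicate 2 and RMI1 without STA9090+PIK75 replicate 2. With BGT226 no interaction passed for the 41 genes by edgeR's test, and DESeq2 called 1, EXO1. An unadjusted p under 0.05 was found for 11 of the 41, against 9.44% of all genes. By the adjusted p, 0.00633% of all genes were positive and 0% negative. The largest of the 41 was EXO1, with an interaction of -0.63 (SE 0.14, adjusted p = 0.179).

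PIK75 and BGT226 were at the same stated dose and time, and 13 of the 41 genes differed between them (31.7%, against 32% of all genes). The total thus stood at the background. PIK75 cells were higher for 10 (24.4%) and lower for 3 (7.32%), against 16.5% and 15.5% of all genes. The largest log2 fold changes of PIK75 over BGT226 were 0.91 (SE 0.21, adjusted p = 0.0019) for RAD51B, 0.72 (SE 0.095, adjusted p = 8.01e-06) for XRCC3, 0.68 (SE 0.075, adjusted p = 8.32e-07) for FANCD2 and 0.61 (SE 0.081, adjusted p = 8.54e-06) for RAD54L. XRCC3 had 44.97, 42.7 and 45.1 CPM with PIK75 and 25.9, 26.8 and 27.8 CPM with BGT226, and FANCD2 had 85.2, 89.2 and 86.2 CPM with PIK75 and 57.95, 48.96 and 55.3 CPM with BGT226. In all 4 genes every PIK75 library was above every BGT226 library. MUS81, UBE2T, EME1, FANCA, FANCI and FANCE were the other higher genes, with log2 fold changes between 0.41 and 0.53. CFL1, LRRC59 and ZNF276, which share exonic bases with MUS81, EME1 and FANCA, were also higher. Their log2 fold changes were 0.66 (adjusted p = 3.6e-05), 0.49 (adjusted p = 0.000394) and 0.29 (adjusted p = 0.0316). POLG (0.17), KLC1 (-0.11) and LRRC41 (0.18), which share bases with FANCI, XRCC3 and RAD54L, missed the threshold. How shared bases were counted was not tested. The 3 lower genes were RAD51D (-0.31 (SE 0.11, adjusted p = 0.0376)), BARD1 (-0.29 (SE 0.089, adjusted p = 0.0175)) and ATM (-0.27 (SE 0.088, adjusted p = 0.0221)). NPAT, which shares exonic bases with ATM, had -0.35 (adjusted p = 0.0258). RAD51D had 19.02, 14.4 and 14.2 CPM with PIK75 and 19.02, 19.5 and 20.4 CPM with BGT226, and BARD1 had 19.5, 18.4 and 19.4 CPM with PIK75 and 22.4, 24.00 and 23.5 CPM with BGT226. RAD51D shares 1003 of its 11304 exonic bases with other genes on its strand and is uncertain to that extent. Without PIK75 replicate 3 the count was 11. RAD51D was lost without PIK75 replicate 2 or 3 or any 1 BGT226 library, BARD1 without PIK75 replicate 2 or BGT226 replicate 2 or 3, ATM without PIK75 replicate 1 or 3 or BGT226 replicate 1, EME1 without BGT226 replicate 1, and FANCE without PIK75 replicate 1 or 2 or any 1 BGT226 library. For genes that missed the threshold the intervals were often wide: BRCA1 had a 95% interval of -0.26 to 0.26 and BRCA2 of -0.37 to 0.45 on the log2 scale.

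The combinations differed from each other in 20 of the 41 genes (48.8%), against 43.3% of all genes tested. Both shares were the highest of any comparison here. STA9090+PIK75 was higher for 17 (41.5%, against 20.9% of all genes) and lower for 3 (7.32%, against 22.4%). The median was 0.27, against -0.015 over all genes. EME1 had a log2 fold change of STA9090+PIK75 over STA9090+BGT226 of 1.17 (SE 0.13, adjusted p = 7.13e-07), RAD54L of 1.14 (SE 0.082, adjusted p = 1.22e-09), FANCD2 of 1.02 (SE 0.075, adjusted p = 1.72e-09) and BLM of 0.98 (SE 0.15, adjusted p = 2.99e-05), each with no overlap between the groups. LRRC59, which shares exonic bases with EME1, had 0.96 (adjusted p = 6.86e-08) in this comparison. LRRC41, which shares bases with RAD54L, had -0.014 (adjusted p = 0.928). How shared bases were counted was not tested. BLM had 14.7, 18.9 and 12.6 CPM with STA9090+PIK75 and 7.82, 7.09 and 8.45 CPM with STA9090+BGT226. FANCB, EXO1, XRCC3, UBE2T, FANCI, CHEK2, FANCG, FANCA, BRCA1 and CHEK1 followed, with log2 fold changes from 0.80 down to 0.40, and ATRIP, FANCC and ATR lay between 0.20 and 0.27. The 3 lower genes were ATM (-0.57 (SE 0.088, adjusted p = 2.85e-05)), RAD50 (-0.44 (SE 0.13, adjusted p = 0.0108)) and RAD51D (-0.30 (SE 0.11, adjusted p = 0.0336)). NPAT, which shares exonic bases with ATM, had -0.32 (adjusted p = 0.0293). POLG, which shares bases with FANCI, had -0.50 (adjusted p = 0.000242). KLC1 (-0.052) and ZNF276 (0.058), which share bases with XRCC3 and FANCA, missed the threshold. RAD51D had 16.9, 16.8 and 14.1 CPM with STA9090+PIK75 and 19.1, 19.8 and 19.6 CPM with STA9090+BGT226. Calls were lost for BRCA1 without STA9090+PIK75 replicate 2, for ATRIP without that library or STA9090+BGT226 replicate 2, for RAD50 without STA9090+PIK75 replicate 3 or STA9090+BGT226 replicate 2, and for RAD51D, ATR and FANCC when any 1 of 4 libraries was left out. For RAD51D these were STA9090+PIK75 replicate 3 and all of STA9090+BGT226, for ATR replicates 2 and 3 of STA9090+PIK75 and 1 and 3 of STA9090+BGT226, and for FANCC replicates 1 and 3 of STA9090+PIK75 and 1 and 2 of STA9090+BGT226. The other 14 passed with each library left out.

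**Figure D3:**
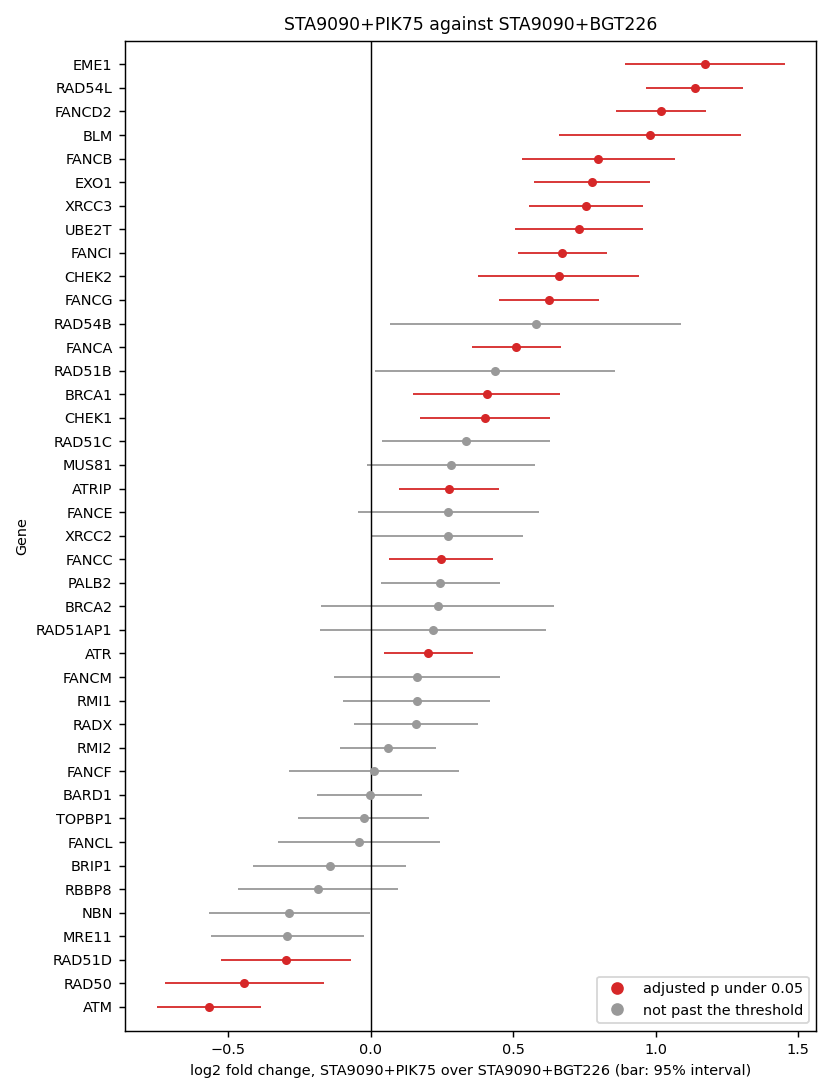
Log2 fold change of STA9090+PIK75 over STA9090+BGT226 (horizontal axis) for each of the 41 genes (vertical axis, ordered by size), with a bar for the 95% interval and red for an adjusted p under 0.05. EME1, RAD54L and FANCD2 lie above 1 at the top, and RAD51D, RAD50 and ATM are the red genes below 0.

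Other genes of repair and of the cell cycle were set beside the 41. Of 47 other repair genes, STA9090+PIK75 raised 17 (36.2%, against 18.3% of all genes) and lowered 3 (6.38%, against 20.1%), with a median of 0.14. STA9090+BGT226 raised 8 (17%, against 19.4%) and lowered 10 (21.3%, against 20.4%). BGT226 raised 7 (14.9%, against 12.8%) and lowered 9 (19.1%, against 15.7%), and PIK75 raised 5 (10.6%, against 8.49%) and lowered 4 (8.51%, against 10.2%). PIK75 and both groups that received BGT226 thus stood near the background. STA9090 changed none by edgeR's test (11 at an unadjusted p under 0.05, against 18.4% of all genes). RAD52, a strand-annealing protein, had log2 fold changes of 1.33 (adjusted p = 2.73e-06) with STA9090+PIK75 and 1.08 (adjusted p = 3.48e-05) with STA9090+BGT226. RPA2, a subunit of the single-strand binding protein RPA, rose by 0.75 (adjusted p = 2.62e-06) and the helicase RECQL5 by 0.61 (adjusted p = 2.69e-06) on the log2 scale with STA9090+PIK75. SLX4, a nuclease scaffold that is also a Fanconi gene, fell with BGT226 (-0.67 (adjusted p = 1.07e-05)) and STA9090+BGT226 (-0.86 (adjusted p = 2.66e-07)), as did RHNO1, a cofactor of ATR signalling (-0.51 (adjusted p = 0.000199) and -0.63 (adjusted p = 1.38e-05)). FAN1, a nuclease that binds the ubiquitinated clamp, rose in both (0.54 (adjusted p = 1.51e-05) and 0.50 (adjusted p = 1.8e-05)).

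End joining seals breaks without a template. Of 15 of its genes, STA9090+BGT226 raised 5 and lowered 3, BGT226 raised 3 and lowered 3, STA9090+PIK75 raised 2 and lowered 2, STA9090 lowered 1 and PIK75 changed none by edgeR's test (3 at an unadjusted p under 0.05, against 31.3% of all genes). The called share, in either direction, was 53.3% with STA9090+BGT226 and 40% with BGT226, against 39.8% and 28.6% of all genes, and 26.7% with STA9090+PIK75, against 38.4%. XRCC6 and XRCC5, the Ku subunits that bind broken ends, had log2 fold changes of -0.50 (adjusted p = 1.19e-05) and -0.42 (adjusted p = 2.32e-05) with STA9090+BGT226, while the nuclease DCLRE1C had 0.82 (adjusted p = 0.000299). With STA9090+PIK75 XRCC5 had 0.29 (adjusted p = 0.00104) and TP53BP1, which shields ends from resection, -0.38 (adjusted p = 8.15e-05).

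Most replication and mitosis genes fell in both groups that received BGT226, and their part in the repair values was not tested. Of 21 replication genes BGT226 lowered 17 (81%, against 15.7% of all genes) and STA9090+BGT226 18 (85.7%, against 20.4%), with medians of -0.40 and -0.65, and neither raised any. Summed over these genes the level was 1449 ± 17.6 CPM with BGT226, 1702 ± 21.8 CPM with STA9090+PIK75 and 1197 ± 29.7 CPM with STA9090+BGT226, against 1849 ± 107 CPM in untreated cells (SD, n = 3). Of 16 mitosis genes BGT226 lowered 11 (68.8%) and STA9090+BGT226 12 (75%), again with none raised. With PIK75, 6 mitosis genes rose (37.5%, against 8.49% of all genes) and none fell, while 4 replication genes fell (19%, against 10.2%) and none rose. With STA9090+PIK75, where 14 of the 41 repair genes rose, 2 replication genes rose (9.52%) and 5 fell (23.8%), and 2 mitosis genes rose (12.5%) and 3 fell (18.8%). Over all genes 18.3% rose and 20.1% fell there, so these falls stood near the background. The rises were 2 genes in each list, too few to set below it. RRM2, which makes deoxynucleotides, had log2 fold changes of -0.88 (adjusted p = 1.29e-06) with PIK75, -1.22 (adjusted p = 3.66e-09) with STA9090+PIK75 and -1.21 (adjusted p = 7.59e-09) with STA9090+BGT226. CDC45, a subunit of the replicative helicase, had -0.59 (adjusted p = 2.83e-06) with BGT226 and -1.01 (adjusted p = 2.4e-09) with STA9090+BGT226. CDC20, the activator of the anaphase ligase, had 0.33 (adjusted p = 0.0089) with PIK75 and -0.92 (adjusted p = 9.8e-08) with STA9090+BGT226.

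**Figure D4:**
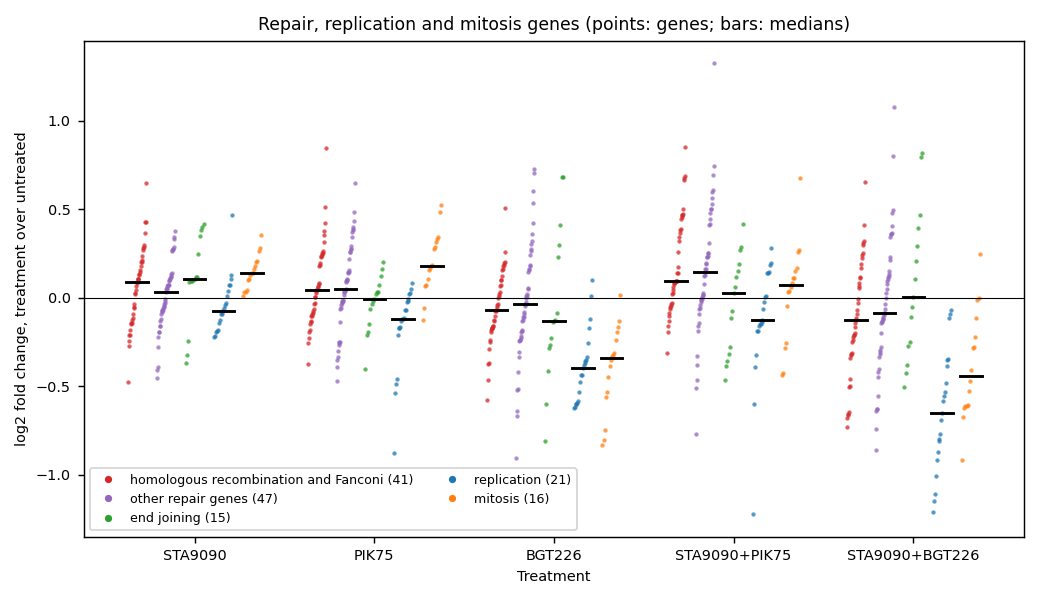
Log2 fold change over untreated cells (vertical axis) of the 41 homologous recombination and Fanconi genes, 47 other repair genes, 15 end joining, 21 replication and 16 mitosis genes in the 5 treatments (horizontal axis), with a point per gene and a bar at the median. With STA9090+BGT226 the replication median is -0.65 and the mitosis median -0.44, while the median of the 41 is -0.13.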

How the data were processed

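RNA was measured in 18 libraries of NCI-H295R cells. Per the labels' protocols, RNA was extracted with a column kit and stranded total RNA libraries, depleted of ribosomal RNA, were sequenced as paired ends. The table the authors deposited holds RSEM's expected counts for each gene and library, without normalization. Per the submitters' processing notes the tools were STAR 2.7.0f and RSEM 1.3.1 after bcl2fastq 2.20 and cutadapt 1.18, with build hg38. Which strand was counted, with which annotation release, and the integrity of the RNA are not stated by the sources used here.

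Expected counts were rounded, moving no library total by more than 0.000381%. With R 4.3.3 and edgeR 4.0.16, genes were kept by filterByExpr (minimum count 10, minimum total 15), libraries were scaled by TMM (factors 0.903 to 1.13), and 1 quasi-likelihood model with a mean per group was fitted to all 18 libraries, so that the groups shared an estimate of the spread (biological coefficient of variation 10.6%). P-values were adjusted by the Benjamini-Hochberg method over 15787 genes, with a threshold of 0.05. Log2 fold changes used a prior count of 0.125, their SE was obtained as the absolute log2 value over the root of the F statistic, and 95% intervals used the total degrees of freedom of the quasi-likelihood F-test. The 11 comparisons were the 5 treatments over untreated cells, each combination over its PI3K inhibitor, the interaction of STA9090 with each, PIK75 over BGT226, and the combinations over each other. The 5 treatments share the untreated libraries.

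Replicates of a group differed by more than sampling noise, with a chi-square per degree of freedom of at least 4.20, so no library was counted as a copy. Between 28.6 and 40.3% of the counts of a library came from RPPH1, RN7SK, RN7SL1 and RN7SL2. Positions and overlaps are from GENCODE 29, which held 99.53% of the gene IDs when the version was ignored.

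The 41 genes, the lists beside them and the tests were chosen with earlier results of these data known. Values per library are given for up to 4 called rises and 4 called falls in each comparison with untreated cells, for BRCA1, BRCA2, ATM, ATR, CHEK1 and FANCD2, and for up to 4 called genes a direction in the other comparisons; from the other lists, up to 3 genes with the smallest adjusted p. XRCC2, FANCA, CHEK2 and others are given by fitted values or means. Alternatives tried were scaling by RLE, dropping the filter except for genes without a count, a filter asking for 1 CPM in 3 libraries or more, blocking on the replicate number, scaling without the 50 genes of highest counts, fitting only the groups compared, DESeq2 1.42.0, and leaving out single libraries.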

Additional observations from a re-analysis of the deposited data

Results flagged for a closer look

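The effect of STA9090 in the presence of PIK75 differed from its effect in the absence of PIK75, by the test of the interaction itself, for 2 of the 41 genes (4.88%). Over all genes 9.27% differed in either direction, 3.54% with a positive and 5.73% with a negative interaction. Both of the 2 genes were positive, and 2 calls are too few to rank the 41 against that background. The interaction on the log2 scale was 0.47 for FANCG (SE 0.12, adjusted p = 0.0168) and 0.43 for ATRIP (SE 0.12, adjusted p = 0.03). For FANCG the direction was positive in all 19 alternatives and each kept the call. For ATRIP 10 of 19 alternatives kept the call, with adjusted p up to 0.0803. ATRIP shares exonic bases with TREX1 on the same strand, and TREX1 had an interaction of -0.10 (adjusted p = 0.827) on the log2 scale.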

How the results depend on the processing

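Of 1156 log2 fold changes of called genes recomputed under an alternative, 999 kept their direction and stayed past the threshold, 157 kept their direction and did not, and 0 reversed. Of 155 counts of called repair genes, 129 were within 1.5 times the reported count and 26 were not. No filter on low counts gave 2 genes with STA9090 (reported 1), 4 with PIK75 (reported 7), 3 with STA9090+BGT226 over BGT226 (reported 1), 1 interaction with PIK75 (reported 2) and 1 with BGT226 (reported 0). The compared groups alone gave 0 with STA9090, 3 with PIK75 and 4 with STA9090+BGT226 over BGT226. DESeq2 gave 2 with STA9090, 4 with STA9090+BGT226 over BGT226 and 1 interaction with BGT226. RLE size factors, the stricter filter and the 50 most counted genes left out each gave 2 with STA9090+BGT226 over BGT226. With a library left out, the counts ran from 1 to 2 with STA9090, 2 to 5 with PIK75, 4 to 7 with STA9090+PIK75 over PIK75, 1 to 2 with STA9090+BGT226 over BGT226 and 1 to 3 for the interaction with PIK75. With DESeq2 the calls of PALB2 and RAD54L with PIK75, RAD51B and CHEK2 with STA9090+PIK75, RADX and FANCC with STA9090+BGT226, RAD54L with STA9090+PIK75 over PIK75, RAD51D and FANCE with PIK75 over BGT226 and RAD51D between the combinations were lost. The cause of these shifts was not tested.

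Over all genes, the background count moved by over 1.5 times in 4 comparisons: STA9090 over untreated cells (448 reported, 769 without the filter, 4 in the groups alone, 116 to 488 with a library left out), STA9090+BGT226 over BGT226 (424, 827, 1334 and 134 to 242), the interaction with PIK75 (1463, 809 in the groups alone) and that with BGT226 (1, 269 without the filter, 43 by DESeq2, 0 to 6 with a library left out).

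The replicate numbers did not pair the libraries: same-numbered deviations correlated at -0.219 to 0.226, over 0.1 in 5 of 45 pairs and in all 3 pairs of 0 of 15 group pairs, and 3 of 18 libraries were nearest to their own number. With the replicate number as a block, PIK75 changed 8 of the 41 genes (reported 7), STA9090+PIK75 13 (14), STA9090+BGT226 16 (17) and the combinations over each other 22 (20). Depth limits the least counted genes, RAD51B, RAD54B and FANCE, and 3 libraries a group leave wide intervals for small changes. The median of all genes moved by at most 0.0173 on the log2 scale with RLE scaling, 0.0232 with DESeq2 and 0.0241 without the filter.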

Other observations

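Several genes of the set stood apart from untreated cells in every library without passing the threshold, and were chosen after their values were seen. How many of all genes tested stood apart in the same way was not counted, so no background is given for this. FANCM, the translocase of the core complex, had 9.84, 9.06 and 10.3 CPM with STA9090, against 8.10, 6.42 and 7.19 CPM in untreated cells, a log2 fold change of 0.43 (SE 0.14, adjusted p = 0.0876). FANCE had 3.68, 3.07 and 4.57 CPM with STA9090 and 7.89, 6.45 and 5.66 CPM with PIK75, against 5.37, 5.14 and 5.16 CPM in untreated cells, so that the agents lay on opposite sides of the untreated level. TOPBP1 had 49.1, 41.9 and 43.2 CPM with STA9090, against 40.7, 28.4 and 35.6 CPM in untreated cells, with a log2 fold change of 0.36 (SE 0.11, adjusted p = 0.075). FANCL, the ligase subunit, had 8.85, 11.4 and 9.13 CPM with PIK75, against 12.2, 13.8 and 12.01 CPM in untreated cells, with a log2 fold change of -0.37 (SE 0.14, adjusted p = 0.0663). By the adjusted p, which these genes missed, 1.16% of all genes rose and 1.68% fell in the STA9090 comparison. With PIK75 8.49% rose and 10.2% fell by that measure.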
